A study of Mus musculus with 2 samples.

Results

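The genes described here are 5 mouse genes, Gfap, Vim, Nes, Synm and Fam187a, out of 21911 protein-coding genes whose chromatin accessibility was counted. The first 4 encode intermediate filament proteins of astrocytes, and Fam187a is the gene next to Gfap on chromosome 11. They were chosen by their measured accessibility: Gfap, Fam187a and Vim are among the genes with the largest stroke over sham ratios in astrocyte-like nuclei, so that contrast and the order of cell classes are given as descriptions, with no test. A gene's value was the number of sequenced fragments that overlap its body and the 2 kb upstream of its start, per 1000000 fragments (CPM) of the same group of nuclei.

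The study sequenced accessible chromatin (scATAC-seq) of single nuclei from brains of wild-type young adult male C57BL/6J mice, 48 h after surgery. Stroke brains had undergone occlusion of the middle cerebral artery by an intraluminal filament followed by reperfusion (MCAO/R), and sham brains the same surgery without sustained occlusion. Each condition was 1 library made from 4 pooled brains. Ipsilateral hemispheres were pooled for stroke and sham brains are not described as divided, so that injury, hemisphere and library cannot be told apart. With 1 library per condition there is no replicate spread and no p-value; every interval below is an exact 95% interval that covers counting error only, and the difference between 2 libraries is not shown to be a difference between conditions.

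Intermediate filaments are the rope-like part of the cytoskeleton. GFAP is the classical astrocyte filament protein, vimentin and nestin are filaments of immature glia and mesenchymal cells, and synemin joins them as a partner that does not build filaments alone. After brain injury astrocytes become reactive, a state known for more GFAP and for the return of vimentin and nestin. The STAT3 transcription factor is known to act on Gfap, and AP-1, the dimer of FOS and JUN proteins, on many genes that respond to injury.

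The sham library held 6979 barcodes called as cells, of which 6817 had over 20% of fragments in peaks and were kept. The stroke library held 8740, of which 5054 were kept. Kept nuclei had a median of 10356 fragments in sham and 9898 in stroke. The number of barcode sequences called in both libraries was 66. Nuclei were assigned to 10 classes by the fragments over lists of marker genes that hold none of the 5 members. Astrocyte-like nuclei numbered 254 in sham, 3.73% of kept nuclei (3.29 to 4.20), and 311 in stroke, 6.15% (5.51 to 6.85). The gate left 5338 sham and 3912 stroke nuclei without a class, and 115 sham and 150 stroke nuclei lay within 1 unit of the astrocyte cut.

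The gate used the summed fragments of 20 astrocyte markers, so their excess in the class is a description and no check of the label. All 20 were at least 2.81-fold higher in astrocyte-like nuclei than in the other kept nuclei, with the water channel gene Aqp4 at 8.18-fold and the gap junction gene Gja1 at 7.27-fold. The 10 genes with the highest raw fold in the class held no marker of any class and were led by Gm4491. They give no check of the name, which was taken from the gate's markers. Summed over the list, astrocyte markers had 2950 CPM in sham and 2921 CPM in stroke astrocyte-like nuclei. None of the 20 was past 2-fold between libraries, and their median log2 ratio was 0.06. Markers of other classes were present in these nuclei in both libraries, and none of those lists was at 0. Their summed levels were 422 CPM in sham and 448 CPM in stroke for 20 myeloid markers, 357 and 431 for 20 endothelial markers, 186 and 228 for 15 VLMC (vascular leptomeningeal cell) markers, 905 and 755 for 18 glutamatergic neuron markers, 483 and 445 for 20 GABAergic neuron markers, 741 and 758 for 15 OPC (oligodendrocyte precursor) markers, 415 and 469 for 20 oligodendrocyte markers, 299.7 and 352 for 14 mural markers, and 175 and 235 for 16 ependymal and choroid plexus markers. The part of these in the results below was not tested.

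The sequences below are a choice from the accessible sites and leave out the sites with the largest ratios at Gfap and Vim. They are the 250 bases before the Gfap start, the most cut 200 bp bin upstream of it, the bin before the Vim gene, and the most cut bin of an intron of Synm. They were read from GRCm38.p6, with each gene's own strand, and the Gfap start is that of RefSeq. Capitals mark the letters TTCNNNGAA, the core that STAT proteins recognise, and TGANTCA, the core of AP-1, searched on both strands.
Gfap promoter, chr11:102897201-102897450, minus strand: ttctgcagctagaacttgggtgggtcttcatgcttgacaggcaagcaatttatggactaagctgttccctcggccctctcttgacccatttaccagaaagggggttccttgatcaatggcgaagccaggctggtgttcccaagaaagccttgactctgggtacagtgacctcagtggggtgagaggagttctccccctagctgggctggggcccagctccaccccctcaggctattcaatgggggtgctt
Gfap upstream bin, chr11:102898601-102898800, minus strand: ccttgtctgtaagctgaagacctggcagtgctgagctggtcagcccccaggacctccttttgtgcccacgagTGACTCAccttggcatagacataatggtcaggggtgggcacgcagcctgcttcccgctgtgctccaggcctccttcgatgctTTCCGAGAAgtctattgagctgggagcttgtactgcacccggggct
Vim upstream bin, chr2:13573601-13573800, plus strand: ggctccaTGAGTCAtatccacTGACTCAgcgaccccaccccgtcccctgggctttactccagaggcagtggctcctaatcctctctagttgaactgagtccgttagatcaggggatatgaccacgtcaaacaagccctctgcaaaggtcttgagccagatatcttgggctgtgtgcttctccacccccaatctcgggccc
Synm intron bin, chr7:67741801-67742000, minus strand: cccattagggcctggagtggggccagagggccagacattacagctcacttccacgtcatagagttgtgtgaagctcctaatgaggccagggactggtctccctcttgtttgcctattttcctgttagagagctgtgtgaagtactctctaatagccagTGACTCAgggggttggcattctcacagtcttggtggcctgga

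The Gfap upstream bin held 1 AP-1 core, at bases 73 to 79, and 1 STAT core, TTCCGAGAA, at bases 155 to 163. The Vim bin held 2 AP-1 cores, at bases 8 to 14 and 22 to 28, and the Synm bin 1, at bases 159 to 165. The 250 bases before the Gfap start held neither. In the accessible sites described below around Gfap, Vim, Nes and Synm, the most cut bin outside untranslated exons was searched too. The sites numbered 24 around Gfap, 7 around Vim, 24 around Nes and 9 around Synm, with at most 1 bin searched in each. Among these bins, only the Gfap, Vim and Synm bins above and a bin 14.3 kb upstream of Gfap held either core. Every printed bin is thus among the few with a core and does not stand for the bins searched. Of 32851 RefSeq promoters cut to the same 250 bases, 7.02% held the STAT core and 6.75% the AP-1 core. Over all 2976559 bins of 200 bp on chromosomes 2, 3, 7 and 11, the shares were 7.30% and 5.90%. A match describes the letters and does not show that a factor was bound.

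Gfap had more fragments per total in the stroke than in the sham library's astrocyte-like nuclei. It lies on the minus strand of chromosome 11, from 102887336 to 102900912 in GENCODE M21. It had 168 fragments in sham, 54.0 CPM (46.2 to 62.8), and 496 in stroke, 149.7 CPM (136.8 to 163.4). The stroke value was 2.77 times the sham value (2.32 to 3.32), a log2 ratio of 1.47. Within 1 kb either side of the GENCODE gene start Gfap had 9.65 CPM in sham and 15.99 CPM in stroke, under 2-fold. That start lies 3712 bases upstream of the RefSeq start. Within 1 kb either side of the RefSeq start, an alternative chosen after seeing the data, Gfap had 14.5 and 41.9 CPM. The ratio there was 2.90 (2.06 to 4.15). In the nuclei below the median depth Gfap had 64.2 CPM in sham and 196.2 CPM in stroke, and in those above it 49.7 and 128.1 CPM. In the other kept nuclei Gfap had 21.3 CPM in sham and 25.2 CPM in stroke.

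Across all 16591 genes with at least 20 fragments over both libraries, 2.92% were at least 2-fold higher and 2.3% at least 2-fold lower in stroke astrocyte-like nuclei, and the median log2 ratio was -0.04. A larger ratio than that of Gfap was seen for 155 genes. Of the 1355 genes with at least as many fragments as Gfap, none had a larger ratio. Gfap was chosen on this ratio, so these ranks are descriptions and no support. Per kb of window, the levels in astrocyte-like nuclei were 3.47 CPM in sham and 9.61 in stroke for Gfap, 1.90 and 10.5 for Fam187a, 1.06 and 4.98 for Vim, 1.61 and 1.78 for Nes, and 0.825 and 1.41 for Synm.

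**Figure D1:**
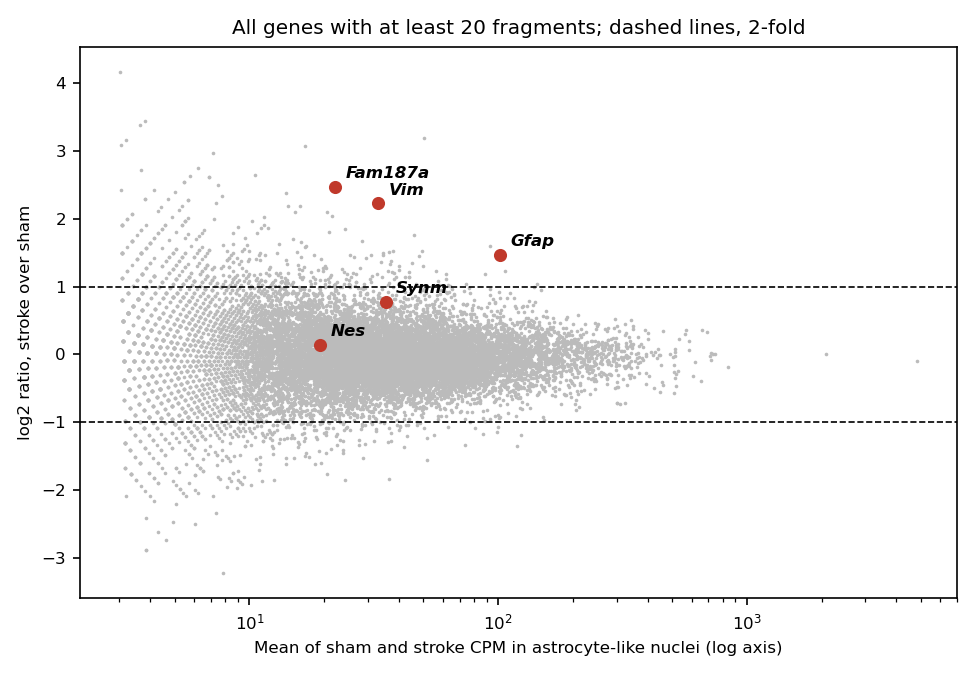
Each grey point is a gene with at least 20 fragments in astrocyte-like nuclei, with its mean CPM over the sham and stroke library on a log x axis and the log2 ratio of stroke over sham CPM on the y axis; 2 genes at 0 in 1 library are not drawn. Fam187a (2.47), Vim (2.23) and Gfap (1.47) lie above the dashed line of 2-fold, and Synm (0.78) and Nes (0.14) below it.

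Vim, which encodes vimentin, lies on the plus strand of chromosome 2, from 13573927 to 13582826. In astrocyte-like nuclei it had 36 fragments in sham, 11.6 CPM (8.11 to 16.03), and 180 in stroke, 54.3 CPM (46.7 to 62.9). The ratio was 4.69 (3.27 to 6.91). Over all 16591 genes tested, 30 had a larger ratio than Vim. Of the 7289 genes with at least as many fragments as Vim, 1 had a larger ratio, Bcl3, a cofactor of NF-kappa-B, which was named after its values were seen. Vim was also chosen on this ratio, so these ranks are descriptions and no support.

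Fam187a lies on the plus strand of chromosome 11, from 102885169 to 102886731, just past the 3' end of Gfap. It had 21 fragments in sham astrocyte-like nuclei, 6.75 CPM (4.18 to 10.3), and 124 in stroke, 37.4 CPM (31.1 to 44.6), a ratio of 5.54 (3.47 to 9.27). This ratio differed by depth, on few sham fragments. In the nuclei below the median depth Fam187a went from 12.8 CPM (6.63 to 22.4, 12 fragments) to 35.2 CPM. In those above it Fam187a went from 4.14 CPM (1.89 to 7.85, 9 fragments) to 38.4 CPM. The sham intervals overlap, so a dependence on depth is not shown. All but 1515 of the 3563 bases of its window also belong to the window of Ccdc103, a gene for dynein arm assembly, and in those 1515 bases the log2 ratio was 3.06. The Gfap and Fam187a windows are 604 bases apart, and no fragment of an astrocyte-like nucleus overlapped both.

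Synm, which encodes synemin, lies on the minus strand of chromosome 7, from 67730160 to 67759742. Its values were 81 fragments in sham, 26.0 CPM (20.7 to 32.4), and 148 in stroke, 44.7 CPM (37.8 to 52.5). The ratio of 1.72 (1.299 to 2.28) had an interval above 1 but did not reach 2-fold. The whole Synm window lies inside that of Ttc23, so the 2 genes cannot be told apart by these windows.

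Nes, which encodes nestin, lies on the plus strand of chromosome 3, from 87971078 to 87980451. It had 57 fragments in sham, 18.3 CPM (13.9 to 23.7), and 67 in stroke, 20.2 CPM (15.7 to 25.7). The ratio was 1.103 (0.763 to 1.60), so a difference was not detectable at this depth.

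The 5 genes differed in how far they marked astrocyte-like nuclei within a library. The other kept nuclei used for comparison include those without a class, 78.3% of kept nuclei in sham and 77.4% in stroke. Whether these ungated nuclei hold astrocytes that missed the gate was not tested. Gfap in the ungated nuclei had 21.58 CPM (20.37 to 22.85) in sham and 26.26 CPM (24.69 to 27.9) in stroke. Gfap was 2.53 times the level of all other kept nuclei in sham (2.15 to 2.97) and 5.93 times in stroke (5.33 to 6.58). Vim was 2.12 times in sham (1.46 to 2.98) and 4.34 times in stroke (3.66 to 5.13), and Nes 1.95 times in sham (1.46 to 2.56) and 2.12 times in stroke (1.62 to 2.75). Fam187a was at the level of the other nuclei in sham, 1.05 times (0.646 to 1.63), and 4.25 times above them in stroke (3.45 to 5.20). Synm was at 0.874 times (0.691 to 1.09) in sham and 1.62 times (1.36 to 1.92) in stroke.

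**Figure D2:**
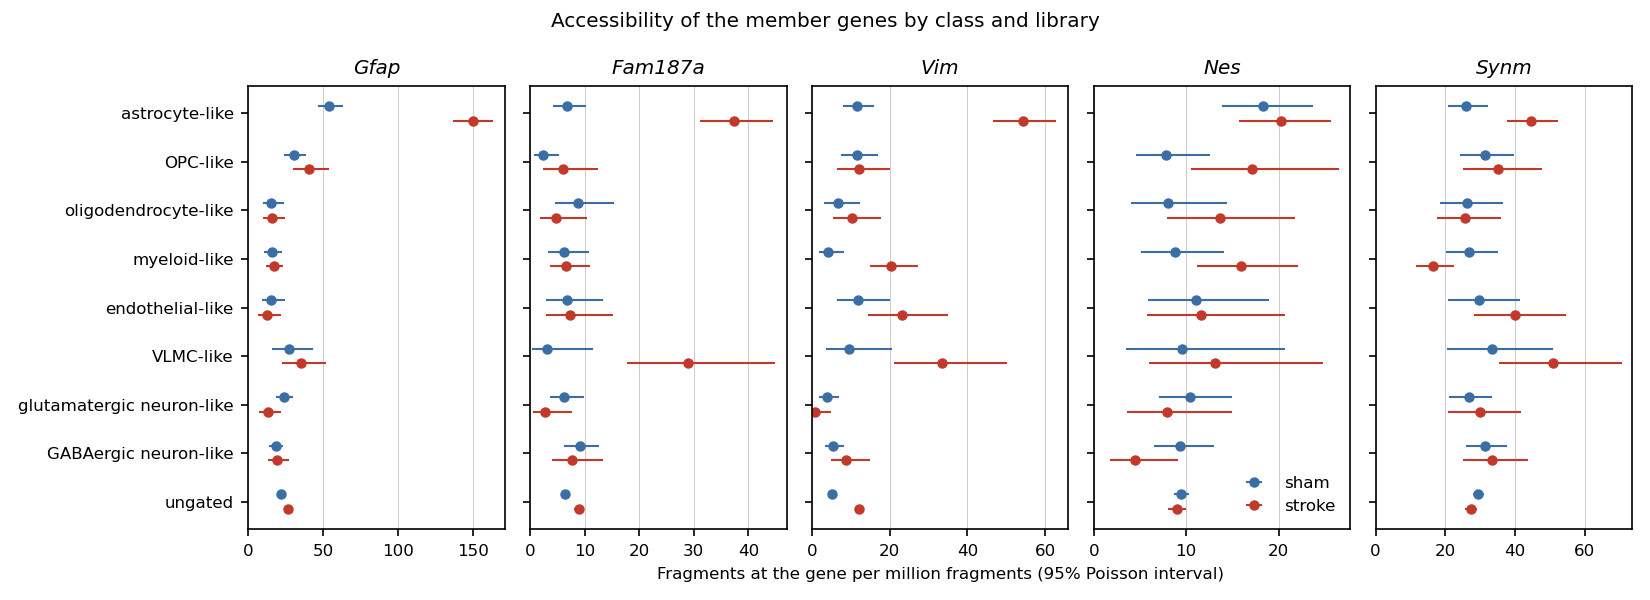
Points give the CPM of each gene (x axis, own scale per panel) in the classes with at least 50 nuclei in both libraries and in ungated nuclei, sham in blue and stroke in red, with 95% Poisson intervals as bars. Gfap in astrocyte-like nuclei moves from 54.0 to 149.7, and for Vim the myeloid-like (4.14 to 20.4) and VLMC-like (9.51 to 33.4) rows also move to the right.

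Within sham, Gfap was highest in astrocyte-like nuclei (54.0 CPM), followed by OPC-like nuclei, the oligodendrocyte precursors (30.4), and VLMC-like nuclei (27.0). In stroke the same 3 classes led with 149.7, 40.3 and 34.8 CPM. The interval of astrocyte-like nuclei was above those of the other classes in stroke, while OPC-like (29.6 to 53.6) and VLMC-like nuclei (22.3 to 51.8) could not be ordered. In no class but the astrocyte-like one with at least 50 nuclei in both libraries was Gfap past 2-fold higher, and the lowest ratio was in glutamatergic neuron-like nuclei, 23.7 to 13.2 CPM (68 and 15 fragments).

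Vim was also past 2-fold in 2 other classes. In myeloid-like nuclei (microglia and macrophages) it had 8 fragments in sham, 4.14 CPM, and 46 in stroke, 20.4 CPM, a ratio of 4.93 (2.31 to 12.1). In VLMC-like nuclei it had 6 fragments in sham, 9.51 CPM, and 23 in stroke, 33.4 CPM, a ratio of 3.51 (1.39 to 10.5). In endothelial-like nuclei the ratio was 1.94 (0.949 to 4.10), from 11.9 to 23.1 CPM. The share of all genes at least 2-fold higher in stroke was 9.31% in myeloid-like, 7.14% in VLMC-like and 4.47% in endothelial-like nuclei. In OPC-like nuclei Vim had 11.5 CPM in sham and 12.01 CPM in stroke, in GABAergic neuron-like nuclei 5.33 and 8.86, and in oligodendrocyte-like nuclei 6.58 and 10.4. Glutamatergic neuron-like nuclei had 11 Vim fragments in sham and 1 in stroke. Over the ungated nuclei it had 5.07 CPM (276 fragments) in sham and 12.2 CPM (483 fragments) in stroke.

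Fam187a had 2 fragments in sham VLMC-like nuclei, 3.17 CPM, and 20 in stroke, 29.0 CPM, a ratio of 9.15 (2.22 to 80.8). These fragments came from 15 of 70 stroke nuclei. Gfap in the same nuclei was 27.0 CPM in sham and 34.8 CPM in stroke. Summed astrocyte markers in VLMC-like nuclei were 723 CPM in sham and 827 CPM in stroke, against 2950 and 2921 in astrocyte-like nuclei. In the classes with at least 50 nuclei in both libraries, the astrocyte-like and VLMC-like ones apart, Fam187a lay between 2.30 and 9.07 CPM. In OPC-like nuclei it had 5 fragments in sham and 7 in stroke, 2.30 and 6.004 CPM, a ratio of 2.61 (0.712 to 10.4).

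In sham, Synm was highest in ependymal and choroid plexus-like nuclei, with 56 fragments in 87 nuclei, 49.8 CPM (37.7 to 64.7). In the 9 other sham classes it lay between 26.0 and 33.3 CPM, with astrocyte-like nuclei lowest. In stroke, among the classes with at least 50 nuclei in both libraries, it ranged from 16.4 CPM in myeloid-like to 50.8 CPM in VLMC-like nuclei. Nes in OPC-like nuclei had 17 fragments in sham, 7.83 CPM, and 20 in stroke, 17.2 CPM, a ratio of 2.19 (1.09 to 4.45), where 2.78% of all genes were at least 2-fold higher. In the other classes with at least 50 nuclei in both libraries, the astrocyte-like one apart, Nes lay between 4.43 and 15.97 CPM.

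The difference for Gfap was spread over many nuclei. In sham, 87 of 254 astrocyte-like nuclei had a Gfap fragment, 34.3% (28.4 to 40.4), and in stroke 207 of 311, 66.6% (61.0 to 71.8). With each nucleus thinned to 3000 fragments, the shares among the 241 sham and 304 stroke nuclei deep enough were 13.7% (9.62 to 18.7) and 33.2% (27.95 to 38.8). In classes that should lack the gene, unthinned shares were 8.33% in sham and 9.52% in stroke endothelial-like nuclei, 17.7% and 14.8% in glutamatergic neuron-like nuclei, and 36 of 277 and 22 of 135 GABAergic neuron-like nuclei. Thinned, these were 4.26% and 1.35%, 2.88% and 4.71%, and 4.01% and 4.55%. Median depths were 10899 and 10707 fragments in endothelial-like, 13798 and 13216 in glutamatergic neuron-like and 11576 and 9754 in astrocyte-like nuclei. In OPC-like nuclei the thinned share was 7.60% (4.11 to 12.7) in sham and 18.2% (11.5 to 26.7) in stroke. Unthinned, 44 of 176 nuclei in sham and 31 of 113 in stroke had a Gfap fragment, and the CPM ratio was 1.33 (0.893 to 1.96). Thinning was 1 random draw per nucleus, and the intervals of thinned shares do not cover the draw. At least 3 Gfap fragments were found in 22 sham and 74 stroke nuclei. The 1 nucleus with the most Gfap fragments held 5.95% of them in sham and 2.02% in stroke.

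Vim fragments were found in 11.8% of sham (8.11 to 16.4) and 37.3% of stroke (31.9 to 42.9) astrocyte-like nuclei. Thinned to 3000 fragments they were found in 3.32% (1.44 to 6.44) and 15.5% (11.6 to 20.02). Unthinned shares were 5.93% and 19.35% in myeloid-like, 10.9% and 25.7% in VLMC-like, 5.78% and 8.89% in GABAergic neuron-like, 4.31% and 1.14% in glutamatergic neuron-like and 10.2% and 19.05% in endothelial-like nuclei. After thinning, a Vim fragment was found in 3 of 50 sham and 1 of 61 stroke VLMC-like nuclei, the opposite direction to the unthinned shares. The thinned counts were 1 of 134 and 7 of 150 in myeloid-like and 3 of 94 and 6 of 74 in endothelial-like nuclei. In GABAergic neuron-like nuclei they were 4 of 274 and 2 of 132, and in glutamatergic neuron-like nuclei 4 of 208 and 0 of 85. Fam187a fragments were found in 5.91% and 23.5% of astrocyte-like nuclei. In sham, the 30 astrocyte-like nuclei with a Vim fragment had 51.1 Gfap CPM (32.7 to 76.0) and the 224 without had 54.5 (46.0 to 64.2). The 15 with a Fam187a fragment had 143.3 (94.4 to 208.5) and the 239 without had 48.3 (40.6 to 56.9). In stroke, the 116 astrocyte-like nuclei with a Vim fragment had 188.5 Gfap CPM (165.9 to 213.4) and the 195 without had 123.7 (108.8 to 140.2), at median depths of 10128 and 9442 fragments. The 73 with a Fam187a fragment had 236.5 Gfap CPM (204.9 to 271.6) and the 238 without had 119.7 (106.4 to 134.2), at median depths of 10879 and 9450 fragments. Nuclei with and without a Nes fragment had 156.7 (126.2 to 192.4) and 148.2 (134.1 to 163.3), and those with and without a Synm fragment 147.4 and 151.2. The Gfap CPM intervals take fragments as independent, although 26 of 254 sham astrocyte-like nuclei held 55.4% of the Gfap fragments. They can therefore be too narrow, and whether they overlap is no test.

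To see where in each locus the fragments lay, fragment ends (Tn5 cut sites) were counted in 200 bp bins within 50 kb of each gene. A bin was called open when the astrocyte-like nuclei of both libraries together had at least 4 times the region's median and at least 10 cut sites, and neighbouring open bins were joined into sites. A bin with few sham cut sites could pass only through its stroke cut sites. Large ratios on few sham cut sites, and counts of higher bins, are therefore partly set by this rule and are no support. Levels of sites are given as cut-site CPM, the cut sites per 1000000 cut sites of the group. The intervals treat cut sites as independent although both ends of a fragment can fall in 1 site, so they are too narrow. Of all 164753 bins in the genome with at least 10 cut sites, 22.4% were at least 2-fold higher and 12.6% at least 2-fold lower in stroke. Around Gfap 39 of 75 open bins were at least 2-fold higher and 3 lower. Around Vim the counts were 15 and 0 of 19, around Synm 5 and 3 of 20, and around Nes 10 and 9 of 68.

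In stroke, the highest sites of the Gfap locus were the start and a site 1.4 kb upstream of it, which includes the upstream bin printed above with its STAT and AP-1 cores. The site over the start held 2 STAT cores over its 1400 bases, outside the 250 bases printed. The upstream site lies in an intron of the annotated gene, since GENCODE extends Gfap 3712 bases beyond the RefSeq start. Of the 182 open bins around the members, 4 held the STAT core (2.20%) and 10 the AP-1 core (5.49%), against 6.01% and 6.27% of all 2312 bins of the loci. The site over the start (1400 bases) had 84 cut sites in sham and 261 in stroke, 13.5 and 39.4 cut-site CPM, a ratio of 2.92 (2.27 to 3.77). The upstream site (800 bases) had 81 and 244, 13.02 and 36.8 cut-site CPM, a ratio of 2.83 (2.19 to 3.68). A weaker site 3.7 kb upstream had 8.04 and 12.8 cut-site CPM, a ratio of 1.60 (1.11 to 2.31). In all other kept nuclei the start had 1.63 cut-site CPM in sham and 3.73 in stroke, and the upstream site 1.53 and 2.95.

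The largest ratios of the locus lay at its 3' end. A site of 1800 bases, chr11:102885801-102887600, runs from the coding exon of Fam187a across the gap between the genes into an untranslated exon at the 3' end of Gfap. It had 17 cut sites in sham, 2.73 cut-site CPM (1.59 to 4.38), and 161 in stroke, 24.3 cut-site CPM (20.7 to 28.3), a ratio of 8.89 (5.38 to 15.6). Nuclei with a cut site there numbered 6 of 254 in sham and 50 of 311 in stroke. The next site, chr11:102887801-102889000, over coding sequence of Gfap, had 9 and 64 cut sites and a ratio of 6.67 (3.30 to 15.3). Further on, the site over the Fam187a start, which also covers an untranslated exon of Ccdc103, had 17 and 71 cut sites and a ratio of 3.92 (2.28 to 7.10). A site over a coding exon of Ccdc103 had a ratio of 3.75 (2.02 to 7.51). The shared start of Ccdc103 and Eftud2, 15.9 kb from the Gfap start, had 13.2 and 15.2 cut-site CPM, a ratio of 1.16 (0.855 to 1.57).

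**Figure D3:**
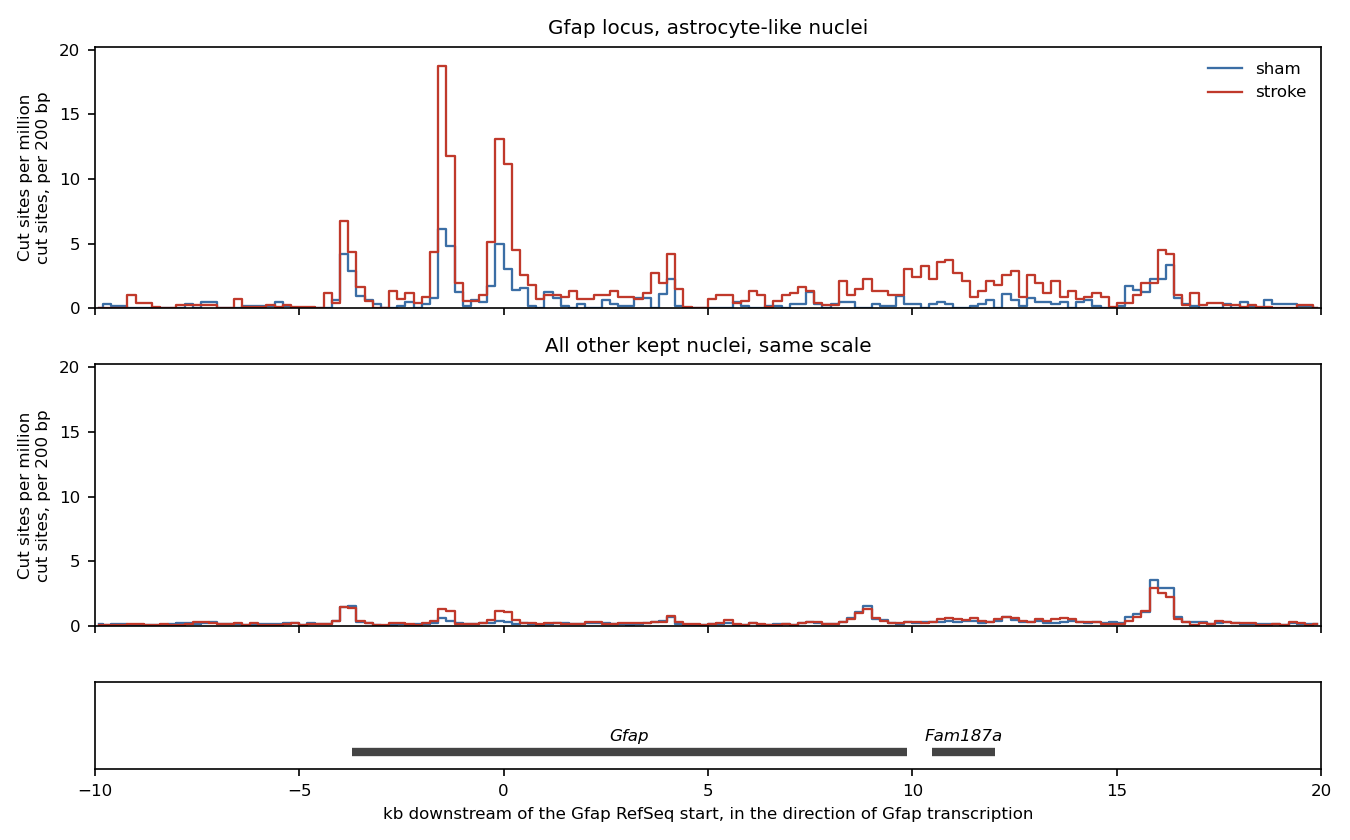
Cut-site CPM in 200 bp bins (y axis) against distance from the Gfap RefSeq start in kb (x axis), sham in blue and stroke in red, for astrocyte-like nuclei above and all other kept nuclei below on the same scale; bars show the annotated genes. Stroke is above sham at the start, at 1.4 kb upstream and in a broad stretch over the Gfap 3' end and Fam187a, where the sham trace is near 0 and the site of 1800 bases goes from 2.73 to 24.3 cut-site CPM.

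The sites of the 3' stretch differed in their levels in other nuclei. The 1800-base site had 9 cut sites in stroke VLMC-like nuclei, 6.53 cut-site CPM, against 1 in sham. In stroke OPC-like, myeloid-like and oligodendrocyte-like nuclei it had 2.57, 2.44 and 2.40 cut-site CPM. Over all other kept nuclei it had 2.73 cut-site CPM in sham and 3.56 in stroke, so the sham level in astrocyte-like nuclei equalled that of the rest at this site. The next site, over Gfap coding sequence, had 4.49 cut-site CPM in the other kept nuclei in sham and 3.99 in stroke, above the 1.45 of sham astrocyte-like nuclei (0.662 to 2.75) and below the 9.66 of stroke astrocyte-like nuclei (7.44 to 12.3).

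Genes within 100 kb of Gfap were compared in the same nuclei. Only Fam187a and Ccdc103 (19.9 to 41.9 CPM, ratio 2.104, 1.55 to 2.89), whose windows overlap, were past 2-fold, against the background of 2.92%. Eftud2, a splicing factor gene, had a log2 ratio of 0.25, Gjc1 of 0.77, Dcakd of 0.17, Kif18b of -0.04 and C1ql1 of -0.35. Higd1b had 3 fragments in sham and 5 in stroke, too few for a ratio.

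At Vim the site over the gene's starts (1400 bases, chr2:13573401-13574800), which holds the printed bin with 2 AP-1 cores, had 40 cut sites in sham, 6.43 cut-site CPM, and 202 in stroke, 30.5 cut-site CPM. The ratio was 4.74 (3.36 to 6.83). The printed bin alone had 4 cut sites in sham and 38 in stroke. Intergenic sites upstream had still larger ratios on few sham cut sites, and were called open mostly on their stroke cut sites. One 2.0 kb upstream had 5 and 63 cut sites, 0.804 and 9.51 cut-site CPM, a ratio of 11.8 (4.81 to 37.7). Another 16.5 kb upstream had 2 and 29, a ratio of 13.6 (3.44 to 118). Each of these sites held 1 AP-1 core, and the one 2.0 kb upstream also 1 STAT core. The start of the neighbour Trdmt1, 29.8 kb upstream, had 13.02 and 16.3 cut-site CPM, a ratio of 1.25 (0.929 to 1.69).

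In other classes the Vim sites had the following levels. The site at the start had 21.8 cut-site CPM in stroke VLMC-like, 13.1 in endothelial-like and 8.65 in myeloid-like nuclei, against 30.5 in astrocyte-like nuclei. The site 2.0 kb upstream had 9.51 cut-site CPM in stroke astrocyte-like nuclei, with 0 cut sites in VLMC-like, 2 in endothelial-like, 2 in myeloid-like and 6 in OPC-like nuclei. A count of 0 in VLMC-like nuclei allows up to 3 cut sites as a one-sided limit, and the exact 95% interval reaches 2.68 cut-site CPM. Over all other kept nuclei this site went from 0.419 to 1.15 cut-site CPM, the site 16.5 kb upstream from 0.341 to 1.49, and the site at the start from 2.54 to 6.52. The site 16.5 kb upstream had 4.38 cut-site CPM in stroke astrocyte-like nuclei, with 7 cut sites in myeloid-like and 3 in VLMC-like nuclei.

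Synm, with a ratio of 1.72 over its whole window, had its largest difference at 1 intronic site. Its start site (1200 bases) had 111 cut sites in sham and 161 in stroke, 17.9 and 24.3 cut-site CPM, a ratio of 1.36 (1.06 to 1.75). A site of 600 bases in an intron 17.8 kb downstream, chr7:67741601-67742200, had 6 and 61 cut sites, 0.965 and 9.20 cut-site CPM, a ratio of 9.54 (4.14 to 27.0). This site holds the printed Synm bin with its AP-1 core, where the counts were 4 and 40. Cut sites there came from 3 of 254 sham and 29 of 311 stroke astrocyte-like nuclei. In all other kept nuclei the site had 0.462 cut-site CPM in sham and 0.788 in stroke, and the intron also belongs to Ttc23. A further annotated Synm transcript starts at 67740594, so the site also lies shortly upstream of a Synm transcript start.

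Around Nes the sites lay on both sides of equal levels. Its intron site at 3.3 kb had 38 cut sites in each library, 6.11 and 5.73 cut-site CPM. The intergenic site 10.2 kb upstream had 14.6 and 21.3 cut-site CPM, a ratio of 1.45 (1.11 to 1.91). The Nes start had 11 and 26 cut sites, a ratio of 2.22 (1.06 to 4.97). An intergenic site of 200 bases 28.4 kb upstream had 1 and 13 cut sites. Downstream, the start of Bcan, which encodes the matrix proteoglycan brevican, was lower in stroke, 79.3 to 50.1 cut-site CPM, a ratio of 0.632 (0.548 to 0.728).

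**Figure D4:**
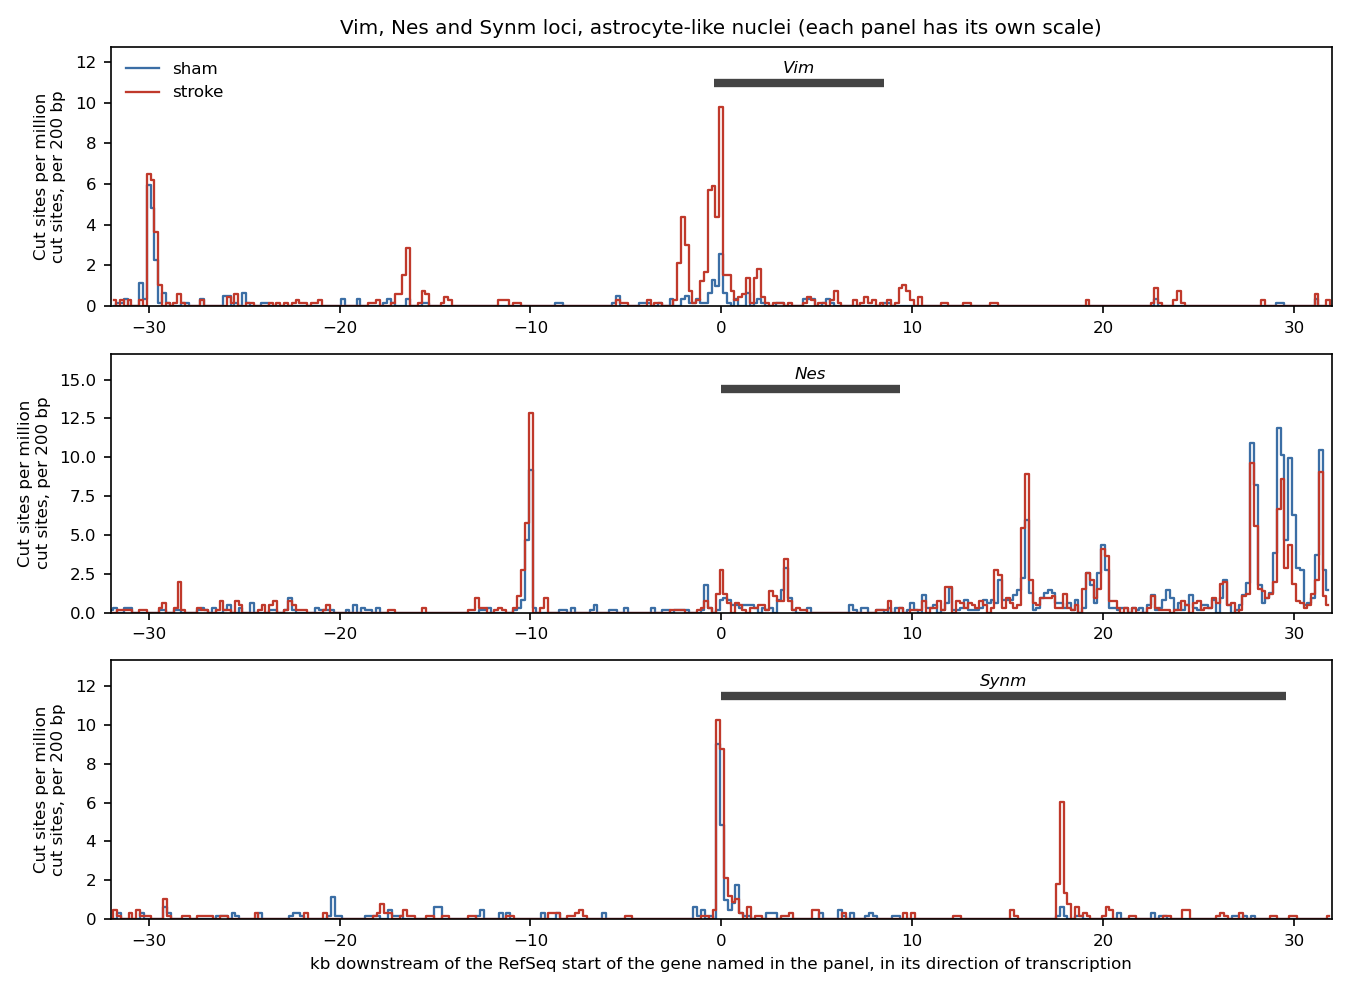
Cut-site CPM in 200 bp bins (y axis, own scale per panel) against distance in kb from the RefSeq start of Vim, Nes and Synm (x axis), in astrocyte-like nuclei of the sham (blue) and stroke (red) library. The red trace is above the blue at the Vim start, 2.0 kb and 16.5 kb before it and 17.8 kb inside Synm, while over the Nes intron site at 3.3 kb the 2 traces are close, 6.11 and 5.73.

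Other intermediate filament genes were spread around the level of all genes. Of 18 listed, 14 had at least 20 fragments, and their median log2 ratio was -0.05 against -0.04 for all genes tested. One, Sync, the muscle filament partner syncoilin, was at least 2-fold higher, 9.003 to 19.01 CPM, a ratio of 2.11 (1.33 to 3.42). One, Des, the muscle filament desmin, was at least 2-fold lower, 10.9 to 4.83 CPM, a ratio of 0.442 (0.228 to 0.822). These 2 are to be read against 2.92% and 2.3% of all genes. The neurofilament gene Nefh had a log2 ratio of -0.96, and the keratin gene Krt18 of 0.91.

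Among 11 genes for linkers and chaperones of filaments the median log2 ratio was 0.31, against -0.04 for all genes tested. Hspb1, a small heat shock protein that binds filaments, was the only 1 of 11 past 2-fold, against 2.92% of all genes, with 5 fragments in sham, 1.61 CPM, and 36 in stroke, 10.9 CPM, a ratio of 6.76 (2.64 to 22.1). Cryab, the small heat shock protein alpha B crystallin, had 12.5 and 21.1 CPM, a ratio of 1.68 (1.123 to 2.56). The lowest ratios of this list were those of Evpl, for envoplakin, 0.751 (0.493 to 1.14), and Dtna, for dystrobrevin alpha, 0.965 (0.873 to 1.065).

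**Figure D5:**
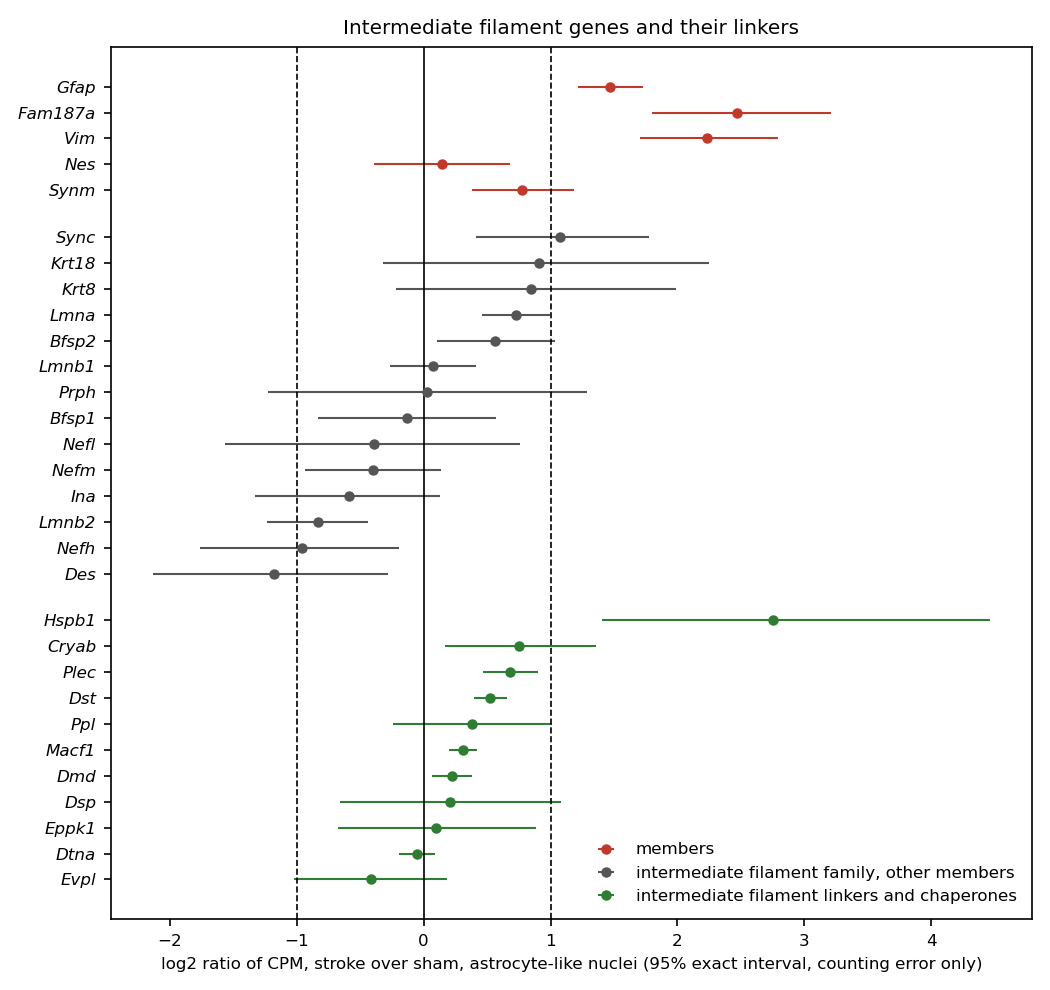
Log2 ratio of stroke over sham CPM in astrocyte-like nuclei (x axis) for the 5 members, 14 other filament family genes and 11 linker and chaperone genes, with exact 95% intervals for counting error; the dashed lines mark 2-fold. Gfap, Fam187a, Vim and Hspb1 lie to the right of the line at 1, Sync just past it, and Des past the line at -1.

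The genes most like Gfap across 18 groups of class and library, by Pearson correlation of log2(CPM + 1), were Atp1b2 (0.91), Fgfr1 (0.88), Gas1 (0.87), Plpp3 (0.87) and Npas3 (0.87), out of 17962 genes with at least 200 fragments. The groups share libraries and are not independent. None of the 5 had a stroke over sham log2 ratio above 0.48 in astrocyte-like nuclei. The genes most like Vim were Cdc42ep4 (0.88), Rgs3 (0.86), Lrrc8a (0.85), Nfe2l2 (0.85) and Gm28035 (0.85). The correlation between Gfap and Vim was 0.60.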

How the data were processed

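The authors aligned scATAC-seq reads to mm10 with Cell Ranger ATAC 2.1.0, which the submitters' processing notes name beside Cell Ranger ARC, and deposited fragment lists with a per-barcode table of counts. The deposited counts are whole numbers, not normalized. Fragments of barcodes called as cells and with over 20% of fragments in peaks were counted over gene bodies plus 2 kb upstream (GENCODE M21, GRCm38, the assembly of mm10) and scaled to CPM of the group's fragments. Depth was 73477848 kept fragments in sham and 52794287 in stroke. A nucleus joined a class when the -log10 Poisson tail of its marker fragments reached 4 and led the next class by 2. Doublets were not called; leaving out nuclei past the gate of a second class was an alternative. Classes under 50 nuclei in a library (mural, ependymal and choroid plexus) were not compared. Intervals are exact Poisson, conditional or binomial at 95%, and the limit of 3 given for a count of 0 is one-sided. Calls were 2-fold or more with at least 20 fragments. Named genes were the 5 members, the extremes of 2 lists, genes within 100 kb of Gfap and the 5 genes most like Gfap and Vim; Bcl3, Bcan, Trdmt1 and the astrocyte markers were named outside this rule, after their values were seen. The members and lists were chosen with earlier results of these data known. Python 3.11.15, NumPy 2.4.6, pandas 2.3.3, SciPy 1.17.1 and Matplotlib 3.10.9 were used. The ratio intervals, the 2-fold call and the gate were tested on simulated counts, and the counting of fragments was not.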

Additional observations from a re-analysis of the deposited data

How the results depend on the processing

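No paired analysis was possible because 1 library stood for each condition, and no replicate could be left out. Over 14 alternatives each, the log2 ratio of stroke over sham in astrocyte-like nuclei ranged from 0.73 to 1.61 for Gfap, 1.46 to 3.22 for Fam187a, 2.00 to 2.44 for Vim, 0.44 to 1.04 for Synm and -0.32 to 0.47 for Nes. Gfap was under 2-fold (0.73) in 1 of the 14, with 1 kb either side of the GENCODE gene start, which lies 3712 bases upstream of the RefSeq start; around the RefSeq start, an alternative chosen after seeing the data, it was 1.54. With even-numbered markers alone Gfap was 1.15. In the nuclei below and above the median depth, also chosen after seeing the data, Fam187a was 1.46 and 3.22. Synm passed 2-fold (1.04) with a stricter gate of 6 alone. Genes at least 2-fold higher in stroke numbered 484, 740 with cut sites in place of fragments and 244 with at least 50 fragments. Genes at least 2-fold lower numbered 381, 585 with cut sites, 184 with at least 50 fragments and 606 with odd-numbered markers. These tested other numbers of genes, 17764, 14585 and 16066 in that order against 16591. With odd-numbered markers fewer genes were tested and more were lower. Why the counts moved was not tested. The window without shared bases gave no value for Synm, whose bases are all shared. At the depth of 57 and 67 fragments the Nes ratio could lie anywhere from 0.763 to 1.60.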

Other observations

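On chromosomes 2, 3, 7 and 11, the AP-1 core TGANTCA was found in 16.8% (1684 of 10012) of the 200 bp bins at least 2-fold higher in stroke astrocyte-like nuclei, in 4.92% (1457 of 29602) of bins within 2-fold and in 5.00% (283 of 5665) of bins at least 2-fold lower, all with at least 10 cut sites. For the STAT core TTCNNNGAA the shares were 7.37%, 5.09% and 4.84%. These are descriptions of letters in bins chosen by the same libraries, with no test. Of all 164753 bins in the genome with at least 10 cut sites, the minimum used for open bins, 4.58% were at least 8-fold higher in stroke. Of the 77238 bins with at least 20 cut sites, 2.15% were.

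Of the barcodes called as cells but not kept, 162 were in sham and 3686 in stroke. Over these, Gfap had 14.99 CPM in sham (20 fragments) and 8.22 CPM in stroke (291 fragments), and Vim had 5.995 and 6.89 CPM (8 and 244 fragments).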
